A study of Mus musculus with 4 samples.

Results

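PIMT, listed in the data by its gene symbol *Tgs1*, and 7 coactivator genes were followed in RNA-seq libraries of the mouse heart. The 8 genes were *Tgs1*, *Ncoa6*, *Crebbp*, *Ep300*, *Ncoa1*, *Ncoa2*, *Ncoa3* and *Carm1*. They were chosen by name, as PIMT, its reported partners NCOA6, CBP and p300, and related coactivators of nuclear receptors. All 8 were found among the 23337 gene symbols listed in each library. The hearts came from C57BL6/J mice of 4 groups, with 1 library for each group. The controls were PIMT fl/fl mice aged 2 or 6 months, labelled WT, whose PIMT gene has exons 3 and 4 flanked by loxP sites. The csPIMT-/- mice, of the same ages, carried the same floxed allele and an α-MyHC-Cre transgene, whose promoter drives Cre recombinase in cardiomyocytes, so that the exons were removed in these cells from the late embryonic period on. No mouse received a treatment. Each library was made from the RNA of 5 hearts of male and female mice, mixed into 1 pool. There was therefore no replicate of any group, and no difference given here has a replicate check. The libraries held 29823073 to 40705783 reads on listed genes.

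PIMT is a methyltransferase that was found as a binding partner of NCOA6. It has a second known role in RNA biology, since the same enzyme, TGS1, adds methyl groups to the cap of small nuclear and nucleolar RNAs and so forms the trimethylguanosine cap. Coactivators are proteins that nuclear receptors such as PPARα recruit to a gene to switch it on. The p160 proteins NCOA1, NCOA2 and NCOA3 bind the receptor directly, the acetyltransferases CBP (gene *Crebbp*) and p300 (gene *Ep300*) and the arginine methyltransferase CARM1 are brought in by them and modify histones, and NCOA6 links receptors to the histone methyltransferases MLL3 and MLL4. In the heart, nuclear receptors and their coactivators are best known for the control of fatty acid oxidation and mitochondrial energy supply.

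*Tgs1* lies on the plus strand at chr4:3574875-3616619 (GRCm38, the same assembly as mm10). Its transcript Tgs1-201 has 13 exons and 4327 bases, of which 2559 are coding. The ends of the floxed exons are shown because they mark which part of the transcript the deletion takes away. The lower-case letters belong to exons 2 and 5, which stay, and the capitals to exons 3 and 4. Exons are numbered as in the GENCODE transcript. The exons 3 and 4 that the study floxed were taken to be the same ones, though its numbering could differ. Each stretch has 30 bases and is written 5′ to 3′.
End of exon 2, chr4:3583460-3583489, plus strand: actatgtcaaaagcagtggcaataatgcag
Start of exon 3, chr4:3585031-3585060, plus strand: GAGACCAAGGTACAGAAGAGGAGGAAGATG
End of exon 4, chr4:3586236-3586265, plus strand: AGAACAGAAGCTCAGACCAACCAGCTAAAG
Start of exon 5, chr4:3589147-3589176, plus strand: agttgcaggagtcttcaggaacaaataaag

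Exon 3 has 158 bases and exon 4 has 814, all of them coding. Together they hold 972 bases, which is 22.5% of the transcript and 38.0% of its coding sequence. These are 324 whole codons, so a transcript that joined exon 2 to exon 5 would keep its reading frame. It would also keep 77.5% of its length. The study measured PIMT RNA by RT-qPCR with the following primers, which are shown because of their place relative to the deletion.
Tgs1 forward: atgtgttgcgagaagtggaac
Tgs1 reverse: cactgcttttgacatagtagcct

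The forward primer matched bases 152 to 172 of the transcript, in exon 1, and begins with the start codon. The reverse primer matched bases 286 to 308, in exon 2. The amplicon of 157 bases therefore lies wholly before the deleted exons, and so do the reads of RNA-seq that fall on exons 1 and 2. Besides RT-qPCR, the study reported PCR genotyping and no nuclear PIMT staining in the csPIMT-/- myocardium. It also reported PIMT protein that could hardly be detected by Western blot. The deposited files hold a single value per gene. Reads on the deleted exons, on the exons that stay and from cells in which Cre does not act could not be told apart.

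**Figure D1:**
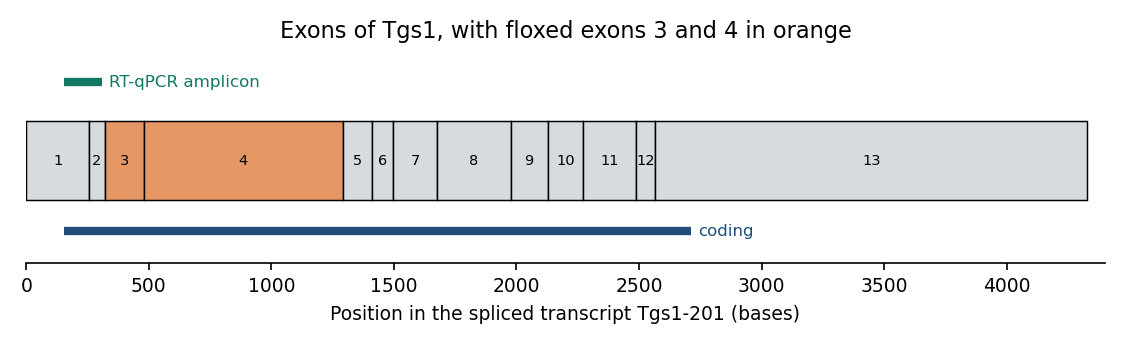
Map of the spliced Tgs1-201 transcript, with the position in bases on the x axis and the 13 exons as numbered boxes. The floxed exons 3 and 4, in orange, hold 972 of the 4327 bases, the blue line is the coding sequence, and the green line is the RT-qPCR amplicon of 157 bases, which ends before exon 3.

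The pools differed in more than genotype. The 6 cardiomyocyte markers, such as *Myh6* and *Tnnt2*, were high in every library, with a summed normalized count of 1142260 to 1477310, as fits the labelled tissue. The 4 atrial markers, such as *Myl7* and *Bmp10*, summed to 2560 in the 2-month control, 50594 in the 6-month control, 132951 in the 2-month csPIMT-/- library and 29128 in the 6-month csPIMT-/- library. The 5 lung markers were at 1.73, 8.79, 1160 and 17.7 in the same order, and the 3 brown fat markers at 1899, 1108, 4356 and 2618. Of the lung sum of 1160, *Bpifa1* held 979 and *Scgb1a1* 139, while *Sftpc*, *Sftpb* and *Sftpa1* were at 25.9, 9.86 and 6.16. Most of the brown fat sum was *Cidea*, at 1889, 1015, 2561 and 2600, while *Ucp1* was at 8.65, 93.2, 1766 and 12.5. The 5 macrophage markers summed to 10431 and 19099 in the controls and to 22829 and 30974 in the csPIMT-/- libraries. In the fit described below, 3 of them were called higher and none lower, against 12.3% and 18.6% of all genes. Not called were *Mrc1*, with ratios of csPIMT-/- over control of 0.913 and 1.10 at 2 and 6 months, and *Adgre1*, at 1.82 and 0.723. The summed level of the 5 fibroblast markers ranged from 72752 to 126425, that of the 5 endothelial markers from 39959 to 58168 and that of the 4 smooth muscle markers from 27223 to 62287, and these sums overlapped between the genotypes. Of single markers, *Kdr* and *Tek* of endothelium and *Lum* of fibroblasts were called lower in the same fit, against 18.6% of all genes. No other marker of the fibroblast, endothelial or smooth muscle lists was called. The 4 Y-linked genes were at 8087 in the 2-month control and at 449 to 1176 in the other libraries, so the pools also differed in Y-linked RNA. The part of these differences in the values of the 8 genes was not tested. In addition, over all genes the difference between genotypes depended on base composition, and transcripts richer in G and C had higher ratios. The Spearman correlation of ratio and GC content, taken over genes that are not independent replicates, was 0.594 for the 2-month and 0.620 for the 6-month pair of libraries. Between the ages it was -0.277 in the controls and -0.0989 in csPIMT-/-. For the 8 genes, and for the other genes and lists where it matters to the direction, the ratio relative to this trend is given as well. The marker *Lum* had ratios of 0.479 and 0.562 at 2 and 6 months. Relative to the trend it was at 1.14 and 1.53, so its direction turned at both ages.

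Levels are given as the deposited normalized counts, and each ratio divides the csPIMT-/- level by that of the age-matched control, with a 95% Clopper-Pearson interval, which covers counting error only. *Tgs1*, the deleted gene, had a normalized count of 580 in the 2-month control and 816 in the 6-month control. In csPIMT-/- hearts it was at 160 at 2 months and 162 at 6 months. These values rest on 670, 928, 130 and 156 reads. Both csPIMT-/- libraries thus lay far below both controls, and they were nearly equal to each other. The ratio was 0.271 (0.223 to 0.327) at 2 months and 0.194 (0.162 to 0.230) at 6 months, a level 3.69-fold and 5.16-fold lower. In bulk heart RNA, fewer cells that carry the RNA and less RNA per cell cannot be told apart. Over both ages the difference of csPIMT-/- from control was -2.09 on the log2 scale (SE 0.333), with an adjusted p of 0.0119 in limma, a linear model across 14878 genes with genotype and age as terms. The call was lost without the mean trend of the variance (adjusted p = 0.061, limma), after subtraction of the GC trend (adjusted p = 0.208), and, with genotype alone in the model, without the 6-month control (adjusted p = 0.0758).

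The transcript of *Tgs1* has a GC content of 41.9%, the lowest of the 8 genes. The trend of all genes at that GC content was a ratio of 0.421 at 2 months and 0.367 at 6 months. *Tgs1* lay below it at both ages, with a ratio to the trend of 0.643 and 0.527. Among all genes measured, 7.83% had a lower ratio than *Tgs1* at 2 months and 5.52% at 6 months. Relative to the GC trend, 20.7% and 14.3% of genes lay lower. The ratio of *Tgs1* was therefore among the low ones in these libraries but was not set apart from many other genes of low GC content.

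*Ncoa6*, whose product is the partner by which PIMT was found, lies on the minus strand at chr2:155390656-155473894. Its normalized counts were 1098 in the 2-month control, 1059 in the 6-month control, 731 in the 2-month and 678 in the 6-month csPIMT-/- library. The controls were close to each other, and both csPIMT-/- values lay below them. The ratio was 0.653 (0.591 to 0.720) at 2 months and 0.624 (0.566 to 0.687) at 6 months. Relative to the GC trend it was 0.703 and 0.661, so *Ncoa6* was lower by either measure at both ages. The difference over both ages was -0.62 on the log2 scale (95% interval -1.23 to -0.01) and did not pass limma's test after adjustment (adjusted p = 0.104).

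*Crebbp*, at chr16:4081328-4213997 on the minus strand, encodes CBP, an acetyltransferase of histones. Its normalized counts were 3798 and 3522 in the 2- and 6-month controls, and 2291 and 3351 in the csPIMT-/- libraries. The 2-month csPIMT-/- library stood apart from the other 3. The ratio was 0.591 (0.560 to 0.624) at 2 months and 0.927 (0.885 to 0.971) at 6 months. *Ep300*, at chr15:81585351-81652077 on the plus strand, encodes p300, the close relative of CBP. Its normalized counts were 2479 and 2698 in the controls and 2024 and 2817 in the csPIMT-/- libraries, so that the genotypes overlapped. The ratio was 0.800 (0.753 to 0.851) at 2 months and 1.02 (0.966 to 1.07) at 6 months, where the interval includes 1. With the GC trend subtracted, *Crebbp* was at 0.528 and 0.789 and *Ep300* at 0.757 and 0.922, so *Ep300* lay below 1 at both ages by that measure. The summed count of both acetyltransferase genes was 6277 and 6221 in the controls, 4315 in the 2-month and 6168 in the 6-month csPIMT-/- library. Over both ages the log2 difference was -0.41 for *Crebbp* (95% interval -1.0 to 0.19; adjusted p = 0.237) and -0.12 for *Ep300* (-0.66 to 0.42; adjusted p = 0.692) in limma. Neither passed, and these intervals leave room for differences of either sign. The 2-month csPIMT-/- library, where both genes were lowest, is also the one with most atrial, lung and brown fat marker RNA. The part of these marker differences in the values of both genes was not tested. Without that library the log2 differences were -0.16 for *Crebbp* and 0.09 for *Ep300*, with genotype alone in the model.

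Among the p160 genes, *Ncoa1* differed most. It lies on the minus strand at chr12:4247362-4477182 and encodes SRC-1, the first described member of the family. Its normalized counts were 3058 and 2322 in the controls, and 1455 and 1621 in the csPIMT-/- libraries. The ratio was 0.466 (0.436 to 0.498) at 2 months and 0.680 (0.638 to 0.724) at 6 months. The smaller difference at 6 months went with a lower control, since the 6-month control was at 0.725 of the 2-month one (0.690 to 0.763), while the csPIMT-/- libraries differed by a ratio of 1.08 (1.0 to 1.17). *Ncoa1* was at 0.555 and 0.811 relative to the GC trend, lower at both ages but not below 0.5. Over both ages the log2 difference was -0.80 (SE 0.238, 95% interval -1.39 to -0.22), with an adjusted p of 0.0504 in limma, just outside the threshold of 0.05. It lay inside the threshold under 5 of the alternatives, with DESeq2 at an adjusted p of 0.0469, and the adjusted p ranged from 0.042 to 0.245 over all of them.

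*Ncoa2*, at chr1:13139105-13374083 on the minus strand, had normalized counts of 3515 and 3609 in the controls and 2339 and 2866 in the csPIMT-/- libraries, both below the controls. Its ratio was 0.652 (0.617 to 0.689) at 2 months and 0.774 (0.737 to 0.812) at 6 months. Relative to the GC trend it was at 0.832 at 2 months and at 1.0 at 6 months, where it lay on the trend. *Ncoa3*, at chr2:165992636-166073242 on the plus strand, had 3199 and 3310 in the controls, 2685 in the 2-month and 3878 in the 6-month csPIMT-/- library. Here the csPIMT-/- libraries were the lowest and the highest of the 4, with ratios of 0.823 (0.780 to 0.868) and 1.14 (1.09 to 1.19), and of 0.836 and 1.12 relative to the GC trend. The log2 difference over both ages was -0.47 for *Ncoa2* (95% interval -0.99 to 0.05; adjusted p = 0.14) and -0.02 for *Ncoa3* (-0.57 to 0.53; adjusted p = 0.956) in limma. The summed normalized count of the p160 genes was 9772 and 9242 in the controls and 6479 and 8366 in csPIMT-/-. *Ncoa1* made up 31.3% and 25.1% of this sum in the controls and 22.5% and 19.4% in csPIMT-/-, so its share was lower in both csPIMT-/- libraries. These shares were not corrected for transcript length, and only their change between libraries can be read.

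*Carm1*, at chr9:21546894-21592623 on the plus strand, encodes the arginine methyltransferase that p160 proteins recruit. It was the only gene of the 8 that was higher in both csPIMT-/- libraries than in both controls. Its normalized counts were 1455 and 1339 in the controls, and 2159 and 1867 in csPIMT-/-. The ratio was 1.45 (1.36 to 1.56) at 2 months and 1.36 (1.27 to 1.46) at 6 months. Its transcript has the highest GC content of the 8, 57.3%, and the direction turned after subtraction of the GC trend, with ratios to the trend of 0.931 and 0.863. The log2 difference over both ages was 0.52 (95% interval -0.03 to 1.06; adjusted p = 0.122 in limma), and -0.16 with the GC trend subtracted. Of the 4852 exonic bases of *Carm1*, 1025 overlap the gene *Yipf2* on the other strand. The strand setting of the counting is not given in the sources used here, so the share of *Yipf2* reads in these values is unknown.

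**Figure D2:**
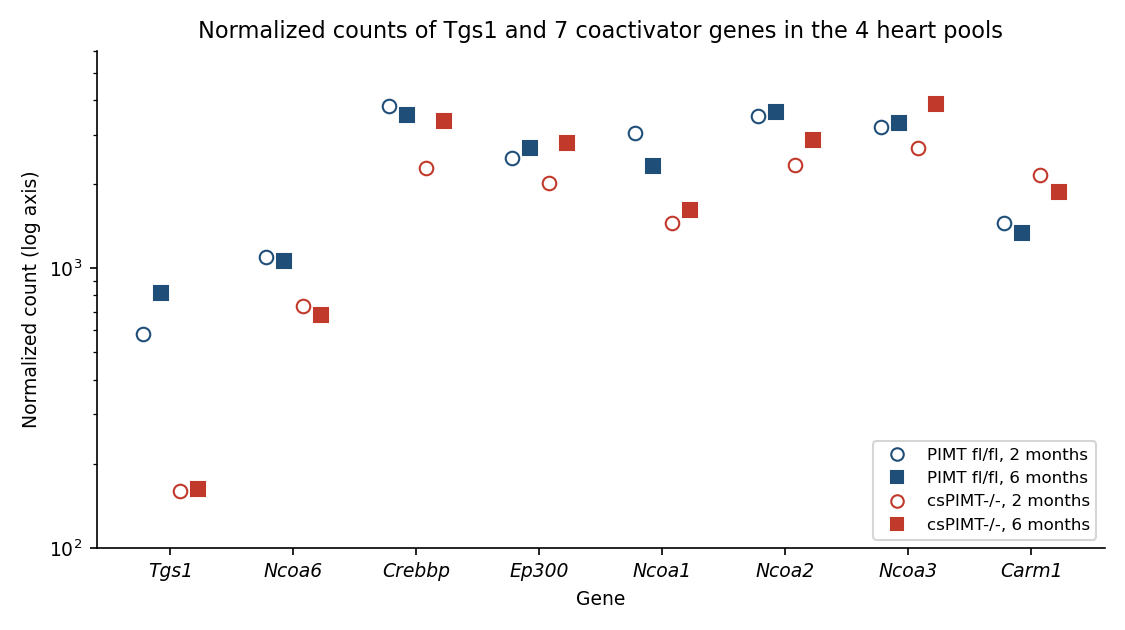
Normalized counts (y axis, log scale) of the 8 genes (x axis) in the 4 libraries, 1 point per pool of 5 hearts; circles are 2 months, squares 6 months, blue PIMT fl/fl and red csPIMT-/-. *Tgs1* is at 580 and 816 in the controls and at 160 and 162 in csPIMT-/-, whereas the points of *Ep300* and *Ncoa3* overlap between genotypes.

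Read together, 7 of the 8 genes had a ratio below 1 at 2 months and 5 at 6 months, where 51.1% and 50.9% of all genes did. The median ratio of the 7 coactivator genes was 0.653 at 2 months, with a range from 0.466 to 1.45, and 0.927 at 6 months, from 0.624 to 1.36. A ratio below 0.5 was reached by *Tgs1* and *Ncoa1* at 2 months, 2 of 8 genes against 23.0% of all 15152 genes measured. At 6 months *Tgs1* was the only one, 1 of 8 against 25.7% of 15218 genes. Relative to the GC trend none (0) of the 8 was below 0.5 at either age, against 11.2% and 13.0% of all genes. No gene of the 8 was above 2, against 16.4% and 16.0% of all genes. For *Tgs1*, *Ncoa6*, *Crebbp*, *Ncoa1* and *Ncoa2*, 5 of 8, both csPIMT-/- libraries lay below both controls, as they did for 36.1% of genes in the fit. Both lay above for 1 of 8, *Carm1*, against 35.0% of genes. In limma 1 of 8 was called lower, *Tgs1*, and none higher, while 18.6% of all genes were called lower and 12.3% higher; 3 of the 8 had an unadjusted p below 0.05. The counts past 2-fold and those called are thus near the shares of all genes. The counts below 1 at 2 months and of genes with both csPIMT-/- libraries below both controls are above those shares, the count with both above is under its share, and no test was made over 8 genes.

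**Figure D3:**
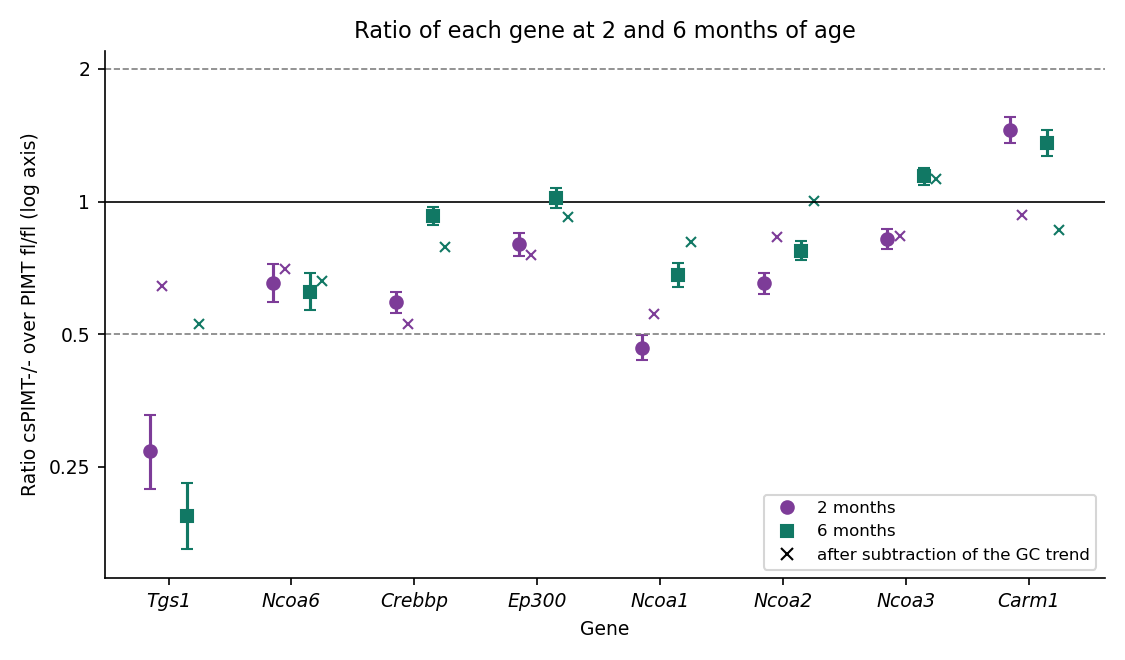
Ratio of csPIMT-/- over PIMT fl/fl (y axis, log scale) of the 8 genes (x axis) at 2 months (circles) and 6 months (squares), with 95% counting intervals as bars; crosses are the ratio after subtraction of the GC trend, and dashed lines mark 0.5 and 2. *Tgs1* at both ages and *Ncoa1* at 2 months lie below 0.5, *Carm1* at 1.45 and 1.36 crosses to below 1 after subtraction of the trend, and no cross lies below 0.5.

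With age, the ratio of 6 over 2 months ranged from 0.725 to 1.35 in the controls and from 0.841 to 1.42 in csPIMT-/- hearts. In the controls, 6 of the 8 genes lay between 0.879 and 1.04. The other two were *Ncoa1*, at 0.725, and *Tgs1*, which was higher at 6 months by a ratio of 1.35 (1.22 to 1.49). In csPIMT-/- hearts *Crebbp* was higher at 6 than at 2 months by 1.42 (1.34 to 1.51), *Ncoa3* by 1.40 (1.33 to 1.48) and *Ep300* by 1.35 (1.27 to 1.44). The ratio of *Tgs1* between these ages in csPIMT-/- was 0.985 (0.775 to 1.25). None of the 8 passed 2-fold with age in either genotype; of all genes, 5.21% fell and 8.15% rose past it in the controls, and 8.73% and 9.17% in csPIMT-/-. The same 4 libraries give the ratios of genotype, so these are no separate evidence.

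To compare the genes with each other, normalized counts were divided by transcript length in kilobases. The mean over the 4 libraries was highest for *Carm1*, at 514 per kilobase, followed by *Ncoa3* at 434, *Ncoa2* at 377, *Crebbp* at 299, *Ncoa1* at 288, *Ep300* at 262, *Ncoa6* at 126 and *Tgs1* at 99.3. Neighbours in this order overlapped in their ranges over the libraries, apart from *Ep300*, from 212 to 295, and *Ncoa6*, from 95.5 to 155. *Tgs1* and *Ncoa6* thus formed a lower tier. The place of *Carm1* differed between libraries. It was first in both csPIMT-/- libraries, at 650 and 562, and in the 2-month control, at 438 against 430 for *Ncoa2*. In the 6-month control it followed *Ncoa2* and *Ncoa3*, at 403 against 442 and 440. In the controls the level of *Tgs1* per kilobase was 86.6% of that of *Ncoa6* at 2 months and 126% at 6 months, and in csPIMT-/- 36.0% and 39.3%. Among all genes with a length, *Tgs1* stood at percentile 37.2 and 42.5 in the controls and at 19.3 and 19.5 in csPIMT-/-. By this measure PIMT RNA was of modest level in the control heart, close to that of its partner *Ncoa6*, and well below it in csPIMT-/-. The levels per kilobase were not corrected for the GC trend, and the full transcript length was used in every library. Relative to that trend, the ratio of csPIMT-/- over control at 2 and 6 months was 0.643 and 0.527 for *Tgs1*. For *Ncoa6* it was 0.703 and 0.661, so the genes lay closer together by that measure.

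**Figure D4:**
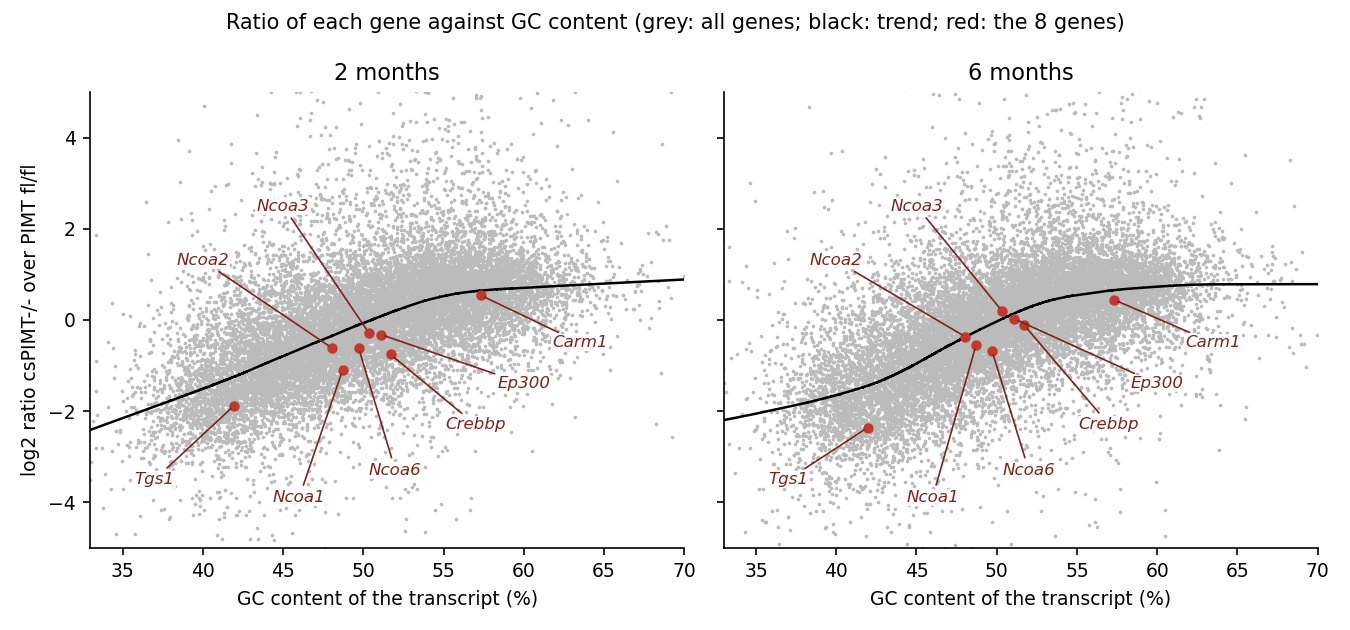
log2 ratio of csPIMT-/- over PIMT fl/fl (y axis) against GC content of the transcript in percent (x axis) at 2 months (left) and 6 months (right); grey points are all genes within the axes, the black line is the lowess trend and red points are the 8 genes. *Tgs1*, at 41.9% GC, lies below the trend at both ages, and *Carm1*, at 57.3%, lies slightly below it although its ratio is above 1.

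Genes that act in the same steps were examined by list. The other receptor coactivators comprised 12 genes. Of these, 7 were called lower in limma and none higher, against 18.6% and 12.3% of all genes, with a median ratio of 0.557 at 2 months and 0.534 at 6 months, where the medians of all genes were 0.978 and 0.976. *Med1*, the Mediator subunit that contacts nuclear receptors and binds PIMT, had normalized counts of 3806 and 3882 in the controls and 2013 and 1916 in csPIMT-/-. Both csPIMT-/- libraries were near 0.5 of their controls, with ratios of 0.519 (0.490 to 0.549) and 0.481 (0.455 to 0.508; adjusted p = 0.0225 in limma), and of 0.752 and 0.735 relative to the GC trend. *Ppargc1a*, which encodes the mitochondrial regulator PGC-1α, had ratios of 0.251 and 0.447 (adjusted p = 0.0135 in limma), but of 0.612 and 1.24 relative to the GC trend, so its direction turned at 6 months. *Trip4*, a subunit of the ASC-1 coactivator complex, was at 0.386 and 0.283 (adjusted p = 0.016), and *Ncoa7*, an estrogen receptor coactivator, at 0.301 and 0.382 (adjusted p = 0.0273). With the GC trend subtracted, *Trip4* was at 0.831 and 0.705 and *Ncoa7* at 0.894 and 1.23, which turned the direction of *Ncoa7* at 6 months. The others called lower were *Kat2b*, at 0.482 and 0.425, *Ppargc1b*, at 0.590 and 0.412, and *Brd8*, at 0.525 and 0.587. These stayed below 1 at both ages after subtraction of the GC trend. *Kat2b* was then at 0.713 and 0.668, *Ppargc1b* at 0.373 and 0.258 and *Brd8* at 0.718 and 0.831. Relative to the GC trend the median ratio of the list was 0.751 and 0.846, and after its subtraction limma called no gene of the whole table, with 3567 genes at an unadjusted p below 0.05.

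The complex in which NCOA6 works with the histone methyltransferases MLL3 and MLL4 was represented by 9 further genes. Of these, 1 was called lower and none higher in limma, where 18.6% and 12.3% of all genes were. The list had a median ratio of 0.794 at 2 months and 0.750 at 6 months, and of 1.18 and 0.874 relative to the GC trend, so that its direction turned at 2 months. The gene called was *Kmt2c*, listed as *Mll3*, which encodes the MLL3 methyltransferase itself, with ratios of 0.441 and 0.498 (adjusted p = 0.0177), and of 0.589 and 0.685 relative to the GC trend. The 8 corepressor genes have products that help to silence the targets of receptors. Of them, 3 were called lower and none higher, against 18.6% and 12.3% of all genes. These were *Ncor1*, which encodes the scaffold of the corepressor complex, its partner *Tbl1xr1*, at 0.489 and 0.375, and *Sin3a*, at 0.485 and 0.485. *Ncor1* was at 0.447 and 0.639 relative to the GC trend and *Sin3a* at 0.602 and 0.608, while *Tbl1xr1* was at 1.17 and 1.02, with its direction turned at both ages. The median ratio of this list was 0.740 at 2 months and 1.07 at 6 months, and 0.862 and 1.05 relative to the GC trend.

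Of 17 nuclear receptor genes expressed in the heart, 1 was called lower and 2 higher in limma, against 18.6% and 12.3% of all genes. The glucocorticoid receptor gene *Nr3c1* had normalized counts of 8061 and 8769 in the controls and 3035 and 2770 in csPIMT-/-. Its ratios were 0.369 and 0.308 (adjusted p = 0.00963), and 0.855 and 0.820 relative to the GC trend. *Rxrb* and *Esrra*, which encode a retinoid X receptor and ERRα, were called higher. With the GC trend subtracted, *Rxrb* was at 1.14 and 0.991 and *Esrra* at 0.928 and 1.03, so each lay below 1 at 1 of the ages. *Ppara*, which encodes the receptor that drives fatty acid oxidation genes, had normalized counts of 4585 and 4546 in the controls and 3119 and 2692 in csPIMT-/-. Both csPIMT-/- values lay below the controls, with ratios of 0.667 (0.636 to 0.699) and 0.577 (0.550 to 0.605), and limma gave an adjusted p of 0.0603. Relative to the GC trend *Ppara* was at 0.610 and 0.504, so the ratio was not raised by that subtraction. The median ratio of the receptors was 0.966 and 1.23, and 0.945 and 0.939 relative to the GC trend.

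The other arginine methyltransferases, relatives of CARM1, comprised 7 genes, of which 3 were called higher and none lower in limma, against 12.3% and 18.6% of all genes. *Prmt1*, which encodes the main enzyme of asymmetric arginine methylation, and *Prmt2* and *Prmt7* were the 3. The list's median ratio was 1.55 at 2 months and 1.57 at 6 months, and 1.28 and 1.17 relative to the GC trend. Of the 7 genes, 3 had ratios below 1 at both ages: *Prmt3* (0.988 and 0.714), *Prmt6* (0.785 and 0.848) and *Prmt9* (0.742 and 0.643). *Carm1* lay in the same direction as the median of this list before subtraction of the GC trend and on the other side of 1 after it.

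For the role of PIMT in RNA caps, 8 genes of cap synthesis and methylation and 8 genes of the snoRNP core were examined. Of the cap genes, 3 were called lower and 1 higher in limma, and of the snoRNP genes 2 lower and 1 higher, where 18.6% and 12.3% of all genes were. *Rnmt*, which encodes the enzyme that methylates the cap of messenger RNA, had ratios of 0.371 and 0.418. Its activating subunit *Ramac*, listed as *Fam103a1*, was at 0.158 and 0.216, and *Rngtt*, which encodes the capping enzyme, at 0.377 and 0.267. *Pcif1*, which encodes a methyltransferase of the first adenosine after the cap, was called higher. The snoRNP core proteins bind small nucleolar RNAs, only some of which carry a cap that TGS1 methylates. Among their genes, *Nop58* of the box C/D particles, at 0.240 and 0.232, and *Dkc1* of the H/ACA particles, at 0.295 and 0.196, were called lower, and *Nhp2* was called higher. The adjusted p was 0.00953 for *Nop58* and 0.0123 for *Dkc1* in limma. The median ratio of the cap genes was 0.733 and 0.502, and that of the snoRNP genes 1.0 and 1.01. These medians, with the GC trend subtracted, were 0.994 and 0.819 for the cap genes and 0.849 and 0.868 for the snoRNP genes. *Rnmt* was at 0.791 and 1.03 by that measure, which turned its direction at 6 months, *Ramac* at 0.492 and 0.724 and *Rngtt* at 0.873 and 0.710. *Nop58* was at 0.621 and 0.678, and *Dkc1* at 0.590 and 0.453.

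**Figure D5:**
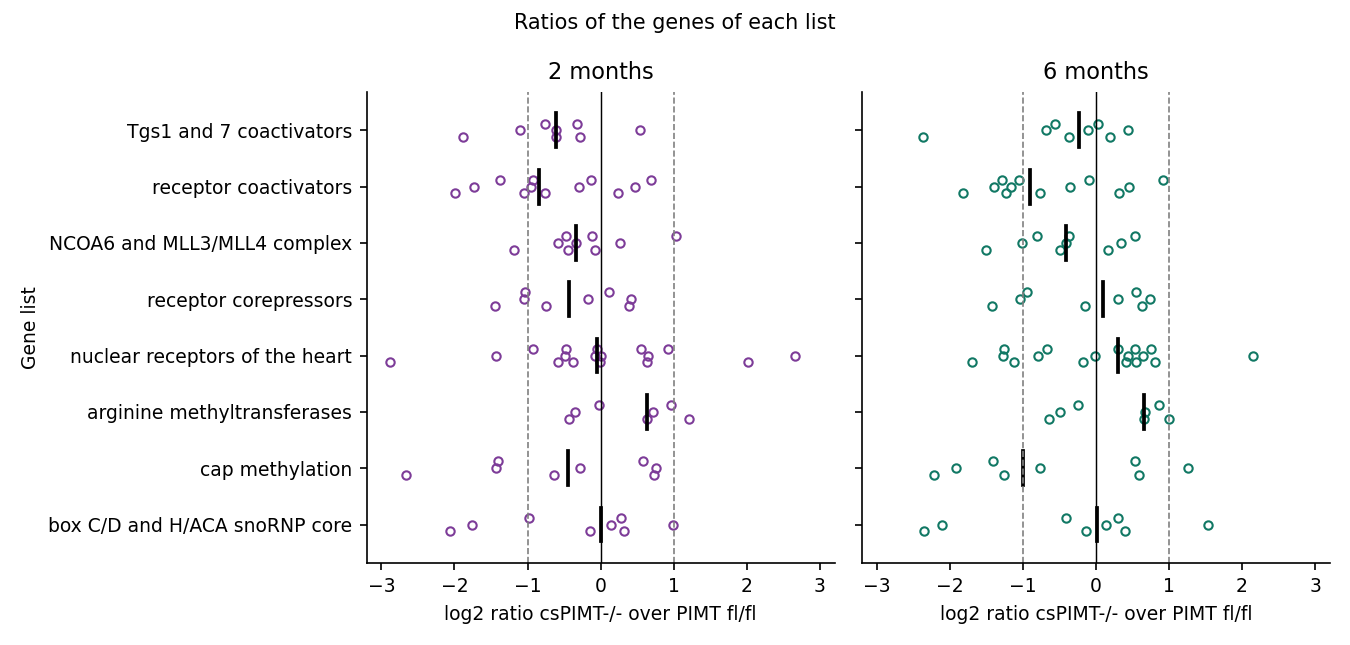
log2 ratio of csPIMT-/- over PIMT fl/fl (x axis) of each gene of 8 lists (y axis) at 2 months (left) and 6 months (right); circles are genes, the black bar is the median of the list, and dashed lines mark 2-fold. The other receptor coactivators have median ratios of 0.557 and 0.534, and the arginine methyltransferases 1.55 and 1.57, while *Tgs1* is the leftmost gene of the first list.

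The genes whose pattern over the 4 libraries was most like that of *Tgs1* were sought among 12054 genes with a mean of at least 100 scaled reads, by the distance between centred log2 values. The nearest 5 with a gene name were *Cfdp1*, which encodes a protein of chromatin, at a distance of 0.07, *Far1*, an enzyme of ether lipid synthesis, at 0.10, *Hdac9*, a class IIa histone deacetylase, at 0.10, *Pigh*, of glycosylphosphatidylinositol anchor synthesis, at 0.11, and *Hsp90b1*, a chaperone of the endoplasmic reticulum, at 0.12. A single unnamed locus lay among them. Like *Tgs1*, *Hsp90b1* was higher in the 6-month than in the 2-month control and nearly equal in the csPIMT-/- libraries, with normalized counts of 10489, 13824, 3063 and 2985 in the order of 2- and 6-month control and 2- and 6-month csPIMT-/-. The GC content of these 5 transcripts was 36.9% to 46.6%. None of the 7 coactivator genes was close, with ranks from 3182 for *Ncoa1* to 8173 for *Carm1* and a rank of 3460 for *Ncoa6*. The comparison rests on 4 points per gene and is a description.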

How the data were processed

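RNA of 4 pools of 5 hearts was enriched with oligo-dT and sequenced. The authors trimmed the reads, removed ribosomal reads, aligned the rest to mm10 with STAR, counted them with HTSeq (version 0.6.1p1, per the labels) against gene models from UCSC, and DESeq2 served for their tests. The deposited normalized counts are a signal on the scale of the median of ratios. The strand setting and the STAR version are not given in the sources used here. All values (100%) were whole multiples of the value of 1 read (tolerance 0.001), so reads were recovered, 29823073 to 40705783 per library.

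Ratios used median-of-ratios scaling of the 2 libraries and genes with at least 10 reads in 1 of them. Since the deposited values turned out to be normalized, limma (3.58.1; log2 of TMM-scaled reads plus 1, at least 10 scaled reads in at least 2 libraries, genotype and age, mean trend, Benjamini-Hochberg) was the test. Its residual degrees of freedom were 1 and its prior degrees of freedom 4.88, so that it leans on variance shared across genes. edgeR (4.0.16) and DESeq2 (1.42.0) on the recovered reads were alternatives and called 4320 and 5198 genes, where limma called 4600. The labels give no replicates, batch or date. With 1 library per group, the residual of the limma fit is how far the genotype difference departed from being equal at both ages. It stands in for replicate spread, and the spread between pools of the same group was not measured. Where nothing says otherwise, p-values rest on these 4 libraries only.

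GC content was that of the longest protein-coding transcript in GENCODE M21 (GRCm38), found for 98.8% of the genes with a ratio, and its trend a lowess curve with a span of 0.3. The sequences come from the same transcripts and from the study's primer list. The 8 genes and all gene lists were chosen with earlier results of these data known. Named were, beside the 8 genes, *Med1* and *Ppara*, in each list up to 3 genes with at least 100 reads past 2-fold in the same direction at both ages, and the 5 genes nearest to *Tgs1*. The other called or marker genes named in the text were chosen after their values were seen.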

Additional observations from a re-analysis of the deposited data

Results flagged for a closer look

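*Ncoa3* was on opposite sides of 1 at the 2 ages, with a ratio of csPIMT-/- over control of 0.823 at 2 months and 1.14 at 6 months. Both counting intervals exclude 1. The difference between the ages was not tested, since each ratio rests on 1 library per group. The controls of both ages differed by a ratio of 0.989, and the csPIMT-/- libraries by 1.40.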

How the results depend on the processing

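No paired analysis was possible because each group had 1 library and the labels carry no replicate numbers; the age term of the fit already compares the genotypes within each age. Total-read and TMM scaling changed no ratio of the 8 genes beyond its counting interval. The *Tgs1* ratio at 2 months was 0.190 against the control of the other age, 0.221 against both controls summed and 0.643 with the GC trend subtracted, and at 6 months 0.274 against the control of the other age and 0.527 with the GC trend subtracted. The count of the 8 genes past 2-fold at 2 months was 1 under either other control and 0 with the GC trend subtracted, where it was also 0 at 6 months. Subtraction of the GC trend reversed *Carm1* (0.931 at 2 months, 0.863 at 6 months, -0.16 on the log2 scale over both ages). It brought *Ncoa2* at 6 months from 0.774 to 1.0, onto the trend, and took *Ep300* at 6 months, whose interval includes 1, from 1.02 to 0.922. In the fit over both ages *Tgs1* was at -2.09 without the mean trend (adjusted p = 0.061, limma) and at -0.76 with the GC trend subtracted (adjusted p = 0.208), and none (0) of the 8 genes was called in either. In both, limma called 0 genes of the whole table, with 5950 and 3567 at an unadjusted p below 0.05. With a pseudocount of 0.5 or 5, no filter on low values, genotype alone or DESeq2, 2 of the 8 genes were called, *Tgs1* and *Ncoa1*. Fits with genotype alone that left out 1 library each were chosen after the data were seen, and the lone library of a genotype is assumed there to vary like the others. In them *Tgs1* ranged from -2.34 to -1.85 and the count called from 0 to 1, being 0 without the 6-month control. *Ep300* ranged from -0.33 to 0.09 and *Ncoa3* from -0.26 to 0.22, with the sign turned without the 2-month csPIMT-/- library for both genes (0.0925 and 0.22) and without the 6-month control for *Ncoa3* (0.0046). The table-wide count of calls was 126 without the 6-month control, 1239 without the 2-month control, and 2679 and 2385 without the 2- and 6-month csPIMT-/- library, against 4600. The cause of these changes was not tested. With 130 and 156 reads, *Tgs1* in csPIMT-/- has the widest counting interval of the 8 genes relative to its ratio.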
